A study of Oryza sativa with 12 samples.

Results

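The mitotic cyclins, B-type cyclin-dependent kinases and DNA replication genes of rice (Oryza sativa) described here are 7 loci, chosen by locus: every array probe whose name begins with one of them was taken. They are CDKB1;1 (Os01g0897000) and CDKB2;1 (Os08g0512600), the cyclins CYCB1;1 (Os01g0805600), CYCB2;1 (Os04g0563700) and CYCB2;2 (Os06g0726800), PCNA (Os02g0805200) and the large subunit of ribonucleotide reductase, or RNR (Os06g0168600). They had 11 of the 42418 probes used and 7 of the 30200 genes on the array. A probe counted as measured if the scanner software flagged it as well above background on every array of some group, which left 5 of the 11 probes and 4 of the 7 genes, among 22724 genes tested.

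B-type cyclins bind and activate B-type kinases as a plant cell goes from the second gap phase into mitosis, and both are transcribed mainly in cells that are about to divide. PCNA is the ring that holds DNA polymerase on its template, and ribonucleotide reductase makes the deoxynucleotides that the polymerase uses, so both serve S phase, and PCNA also serves DNA repair. In grass leaves cell division is confined to the meristem and the base of growing blades, and an expanded blade holds few cells in cycle.

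The arrays measured leaves of 2 rice genotypes, FR13A and Goda Heenati. Seedlings of both were 14 d old. Each of the 12 samples pooled leaves of about 20 plants from several pots, with 3 biological replicates in each of 4 groups. The groups were FR13A submerged for 3 d, FR13A control, Goda Heenati submerged for 3 d and Goda Heenati control. Submerged plants stood in water 70 cm deep, with shoot tips at the start 52.7 ± 2.3 cm below the surface in FR13A and 45.9 ± 2.9 cm in Goda Heenati, and controls stood in a tank without water. Submergence was sampled at 1 time.

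Values below are log2 processed signal minus the array's own 75th percentile, and they compare 1 probe across arrays and never different probes. The lowest signal well above background lay between -8.88 and -7.16 on this scale. Between 30265 and 34245 probes were well above background on an array. The 12 arrays lay on 3 slides, and replicate 1 of all 4 groups was on slide 1, replicate 2 on slide 2 and replicate 3 on slide 3. All 4 mature leaf markers (2 small subunits of Rubisco and 2 chlorophyll a/b-binding proteins) were well above background on every array. Of 5 shoot meristem markers, 1 was so on all 3 submerged FR13A arrays, and 0 were on all 3 arrays of any other group. OSH15 was on no array and OSH71 on no FR13A control array, while the others were on at least 1 array of every group. Their summed linear level was 0.033 to 0.0707 on submerged FR13A and 0.0339 to 0.0729 on submerged Goda Heenati arrays. On the controls it was 0.0227 to 0.0754 and 0.0346 to 0.0545, so the groups overlapped. Of 2 markers of young dividing leaf, GRF1 and DL, both were well above background on every array. Of 4 root markers, 1 or 2 were on all arrays of a group, and LSI2 was on none. PT11, a root phosphate transporter, rose by 2.52 ± 0.54 in submerged Goda Heenati leaves (adjusted p of 0.00677, limma, n = 3 arrays a group), or by 1.37 with normexp background correction, with 1 of 3 control arrays well above background. Its FR13A difference of 1.43 ± 0.54 was not called (adjusted p of 0.0722). LSI1, a root silicon transporter, differed by -1.73 ± 0.60 in FR13A and -1.58 ± 0.60 in Goda Heenati and was not called in either (adjusted p of 0.0566 and 0.0809). The summed linear level of the 4 root markers was 0.0966 to 0.479 on submerged FR13A and 0.147 to 0.338 on submerged Goda Heenati arrays, against 0.366 to 0.682 and 0.464 to 0.535 on their controls. The part of root tissue in the results was not tested.

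The 3 B-type cyclins were at or below the detection limit in leaves of every group. Of 72 values from their 6 probes, 3 were well above background, on 2 of the probes. The 3 probes of CYCB2;1 and the first of the 2 probes of CYCB2;2 were on 0 of 12 arrays. The probe of CYCB1;1 was on 2 of 12, 1 submerged and 1 control array of Goda Heenati.

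The values of CYCB1;1, which drives entry into mitosis, were -7.81, -8.63 and -8.00 on submerged FR13A arrays, against -7.39, -8.64 and -8.13 on FR13A control arrays. They were -7.65, -6.95 and -7.53 on submerged Goda Heenati arrays, against -8.92, -6.77 and -8.69 on Goda Heenati control arrays. The groups overlapped in both genotypes, and no fold is given for a probe at background. CYCB2;1, a cyclin of the same phase, ranged over its brightest probe from -9.03 to -8.90 and from -8.72 to -8.52 on submerged arrays of FR13A and Goda Heenati, against -9.51 to -7.69 and -9.61 to -8.70 on their control arrays.

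The second probe of CYCB2;2 had 1 value apart from the rest. It read -8.76, -9.51 and -8.54 on submerged FR13A arrays, against -7.01, -8.70 and -8.11 on FR13A control arrays. On submerged Goda Heenati arrays it read -8.85, -4.64 and -7.93, against -8.98, -7.23 and -8.69 on Goda Heenati control arrays. The value of -4.64, from replicate 2, was the only one of the 12 well above background, and the other probe of the gene was at background on that array too. With 1 array above background in 1 group, the gene was not tested.

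**Figure D1:**
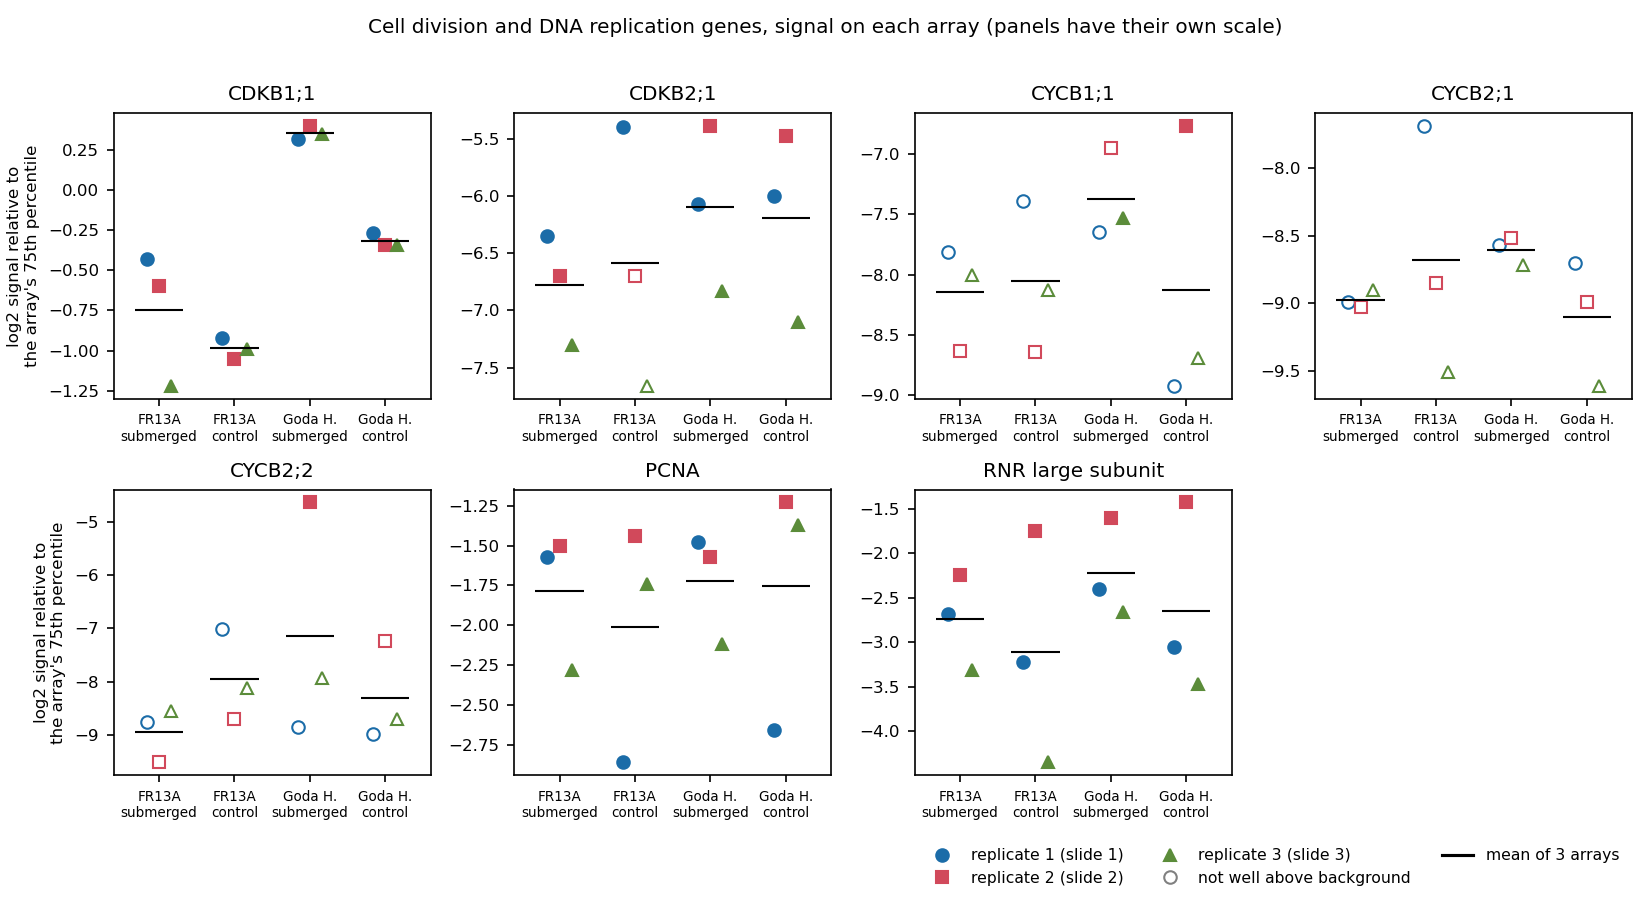
Log2 signal minus the 75th percentile of the array (vertical axes, each panel on its own scale) of the 7 genes on the 12 arrays, by group, each gene shown by its brightest probe. Marker shapes and colours are replicates, which are also slides, open markers are values not well above background and bars are means of 3 arrays. CYCB1;1, CYCB2;1 and CYCB2;2 are mostly open, while CDKB1;1, PCNA and RNR are filled on every array, and the CDKB1;1 values of FR13A lie below those of Goda Heenati.

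None of the 4 measured genes was called different between submerged and control leaves in either genotype. A call required both an adjusted p under 0.05 in the limma fit and a difference of 2-fold or more. By that rule 0 of 4 were called in FR13A, where 21.8% of all 22724 genes were (10.0% higher and 11.8% lower under submergence). In Goda Heenati 0 of 4 were called as well, where 20.6% of all genes were (9.09% higher and 11.5% lower). The smallest unadjusted p of the 4 in limma was 0.301 in FR13A and 0.0107 in Goda Heenati, both for CDKB1;1. In pooled leaves fewer dividing cells and less RNA per cell cannot be told apart. The 95% intervals of CDKB2;1, PCNA and RNR, from the fit without a block for slides, reached past 2-fold higher in both genotypes. The absence of a call therefore does not show equal levels.

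CDKB1;1, a kinase of the step into mitosis with a role also in stomatal divisions in Arabidopsis, was well above background on all 12 arrays, with processed signals from 2206 to 13099.8. Its values were -0.43, -0.60 and -1.22 on submerged FR13A arrays, against -0.92, -1.05 and -0.99 on FR13A control arrays. On submerged Goda Heenati arrays they were 0.32, 0.40 and 0.35, against -0.27, -0.34 and -0.34 on Goda Heenati control arrays. In FR13A submerged array 3 lay below all 3 controls and the other two above them, so the groups overlapped. In Goda Heenati all 3 submerged arrays lay above all 3 controls, and the arrays of a group lay within 0.08 of each other.

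The submergence difference of CDKB1;1 was 0.67 ± 0.22 (log2, SE, n = 3 arrays a group) in Goda Heenati, a 1.60-fold higher level with a 95% interval of 1.14 to 2.23-fold and an adjusted p of 0.0447 from limma. It stayed under the 2-fold limit and was therefore not called, and its adjusted p ran from 0.0153 to 0.115 when single arrays were left out. Within slides it was 0.59, 0.75 and 0.69, against a median over all genes of 0.15, 0.08 and 0.02 on the same slides. In FR13A the difference was 0.24 ± 0.22 with an adjusted p of 0.458 and an interval of 0.841 to 1.65-fold. The within-slide values in FR13A were 0.49, 0.45 and -0.23, so slide 3 went the other way. The difference between the responses, FR13A minus Goda Heenati, was -0.44 ± 0.31 with an interval from -1.12 to 0.24 and an adjusted p of 1.0, so the responses were not shown to differ. Of the 4 measured genes, 0 were called for that difference, where 0.0924% of all genes were. Their smallest unadjusted p in limma was 0.184, for CDKB1;1.

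CDKB2;1, a kinase transcribed in the second gap phase and mitosis, was dim. Its brighter probe read -6.35, -6.70 and -7.30 on submerged FR13A arrays, against -5.40, -6.70 and -7.66 on FR13A control arrays, of which 1 was well above background. In Goda Heenati it read -6.07, -5.39 and -6.83 on submerged arrays, against -6.00, -5.48 and -7.10 on Goda Heenati control arrays. The submerged and control arrays overlapped in both genotypes, and slide 3 was the lowest of the 3 in all 4 groups. The difference was -0.20 ± 0.61 in FR13A (adjusted p of 0.837, limma, n = 3 arrays a group) and 0.09 ± 0.61 in Goda Heenati (adjusted p of 0.93). The second probe gave -0.19 in FR13A and 0.25 in Goda Heenati. The interval allowed 0.344 to 2.2-fold in FR13A and 0.42 to 2.71-fold in Goda Heenati.

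PCNA was well above background on all 12 arrays. Its values were -1.57, -1.50 and -2.28 on submerged FR13A arrays, against -2.86, -1.44 and -1.74 on FR13A control arrays. On submerged Goda Heenati arrays they were -1.48, -1.57 and -2.12, against -2.66, -1.23 and -1.37 on Goda Heenati control arrays. The groups overlapped, and the first control array was the lowest value in both genotypes. The mean difference was 0.23 ± 0.46 in FR13A (adjusted p of 0.748, limma) and 0.03 ± 0.46 in Goda Heenati (adjusted p of 0.968, n = 3 arrays a group in both), with intervals of 0.578 to 2.38-fold and 0.503 to 2.08-fold.

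Within slides the PCNA difference had the same order in both genotypes. It was 1.30 in FR13A and 1.18 in Goda Heenati on slide 1, higher under submergence. On slide 2 it was -0.06 in FR13A and -0.34 in Goda Heenati, and on slide 3 it was -0.54 in FR13A and -0.74 in Goda Heenati. The mean over the slides near 0 thus joins a positive value on slide 1 with negative values on the other slides. Without slide 1 the PCNA difference was -0.30 in FR13A and -0.54 in Goda Heenati, with adjusted p of 0.616 and 0.368 from limma. Slide 1 was scanned on another day than slides 2 and 3 and was the only one with saturated probes, between 1837 and 2406 an array. No spot of the 7 genes was saturated, and the part of the slide in these values was not tested.

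The RNR large subunit was also well above background on all 12 arrays. It read -2.68, -2.24 and -3.31 on submerged FR13A arrays, against -3.22, -1.75 and -4.35 on FR13A control arrays. On submerged Goda Heenati arrays it read -2.40, -1.60 and -2.66, against -3.05, -1.43 and -3.47 on Goda Heenati control arrays. The groups overlapped, and in all 4 groups slide 2 was the highest and slide 3 the lowest. The distance between those slides was 1.07 and 1.06 in submerged FR13A and Goda Heenati leaves, against 2.59 and 2.04 in their controls.

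The submergence difference of RNR was 0.36 ± 0.68 in FR13A (adjusted p of 0.73) and 0.43 ± 0.68 in Goda Heenati (adjusted p of 0.689, both from limma with n = 3 arrays a group). Its intervals ran from 0.454 to 3.66-fold and from 0.476 to 3.81-fold. Within slides it was 0.54, -0.49 and 1.04 in FR13A and 0.65, -0.17 and 0.81 in Goda Heenati. Slides 1 and 3 were positive and slide 2 negative in both genotypes. The control arrays of the slides differed from each other by more than the treatment means did, up to 6.04-fold between slides 2 and 3 in FR13A controls.

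DL, a gene of young leaves with a role in midrib formation, was highest on slide 2 in both control groups. It was saturated on the slide 1 array of each submerged group, so those 2 values are lower limits and their order against slide 2 is not known. DL read 2.56, 3.62 and 1.75 on submerged FR13A arrays, against 0.65, 2.95 and 0.41 on FR13A control arrays. In Goda Heenati it read 2.35, 3.55 and 1.40 on submerged arrays, against 0.36, 2.72 and 0.53 on Goda Heenati control arrays. The gene's 2 kept probes disagreed on submergence, at 1.31 and -0.99 in FR13A and 1.23 and -0.86 in Goda Heenati, and neither gene-level difference was called. The summed linear level of GRF1 and DL was 3.39 to 12.3 on submerged FR13A and 2.66 to 11.7 on submerged Goda Heenati arrays, against 1.36 to 7.75 and 1.29 to 6.61 on their controls. The part of young leaf tissue in the RNR values was not tested. On the same arrays GRF1, the other young leaf marker, differed by 0.08 ± 0.42 in FR13A and 0.67 ± 0.42 in Goda Heenati, and neither was called. GRF1 did not vary with RNR as DL did: the Pearson correlation with RNR over 12 arrays was 0.829 for DL and -0.362 for GRF1. The DL correlation rests on the brighter of its disagreeing probes and includes the 2 saturated values.

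**Figure D2:**
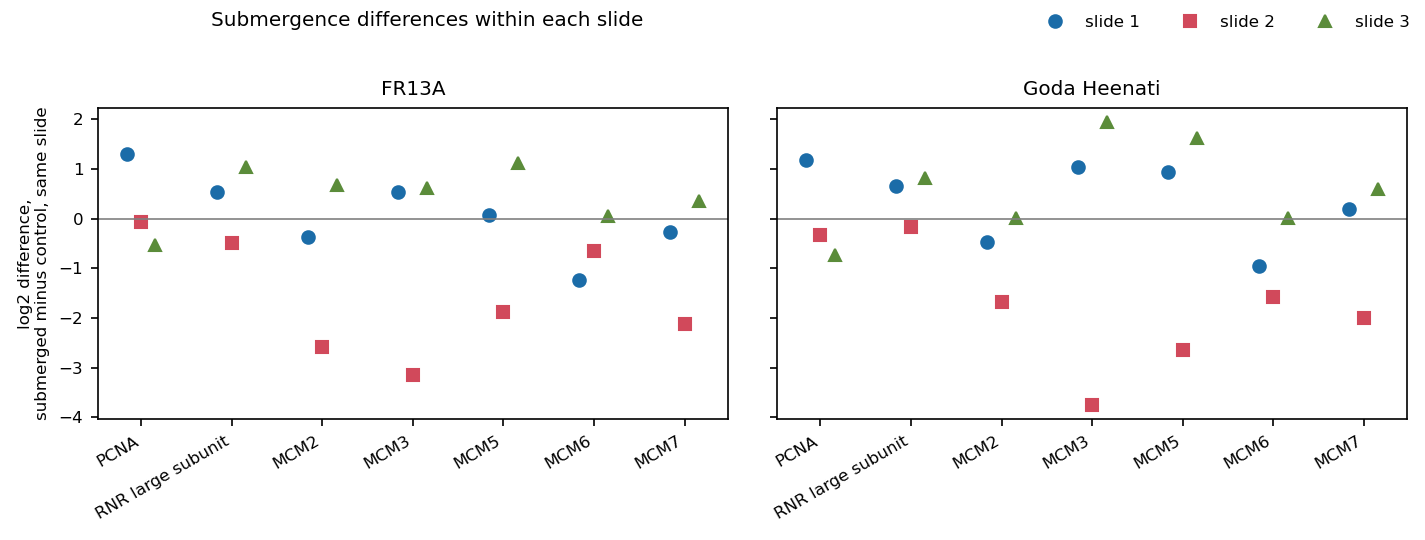
Log2 difference between the submerged and the control array of the same slide (vertical axis) for PCNA, the RNR large subunit and 5 measured MCM helicase subunits, in FR13A (left) and Goda Heenati (right). Marker shapes and colours are slides; PCNA is positive on slide 1 alone, RNR is negative on slide 2 alone, and the MCM subunits are lowest on slide 2 apart from MCM6 in FR13A.

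The MCM subunits, which form the helicase that opens DNA ahead of the replication fork, differed by slide as well. They were not called for submergence and were picked after their values were seen. MCM2 was called between genotypes, as given below. The median of 5 measured subunits within slides was -0.27, -2.12 and 0.61 in FR13A and 0.20, -2.01 and 0.60 in Goda Heenati. MCM3 read -6.07, -7.17 and -5.76 on submerged FR13A arrays, against -6.61, -4.03 and -6.37 on FR13A control arrays. In Goda Heenati it read -7.91, -8.62 and -6.80 on submerged arrays, against -8.94, -4.86 and -8.75 on control arrays. In both genotypes the control array of slide 2 stood above all 5 others. None of the 5 was called in FR13A, with a median difference of -0.66, or in Goda Heenati, with a median of -0.40, beside 0.05 and 0.09 over all genes.

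CDKB1;1 was the only one of the 7 that was called in any comparison, and under submergence it was lower in FR13A than in Goda Heenati. The difference was -1.11 ± 0.22 (log2, SE, n = 3 arrays a group), 2.15-fold, with an adjusted p of 0.00623 from limma. Its mean was -0.75 ± 0.42 in FR13A and 0.36 ± 0.04 in Goda Heenati (SD, n = 3), and the groups did not overlap. Within slides it was -0.75, -1.0 and -1.57. Thus 1 of 4 measured genes was called, where 10.1% of all genes were.

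That call rests on 1 probe and depended on single arrays and slides. Without submerged FR13A array 3, the lowest, the difference was -0.87 with an adjusted p of 0.0141, under 2-fold. Without slide 2 it was -1.16 with an adjusted p of 0.146, and without slide 3 it was -0.88 with an adjusted p of 0.0798. The direction was the same in all of these. The CDKB1;1 probe is labelled as resting on expressed sequence tag evidence, with no transcript region named. All probes of the other cyclins and kinase, PCNA and RNR are labelled as mRNA, with coding and untranslated sequence named. Whether the CDKB1;1 probe measures that transcript alone was not tested. A different level of transcript and a different match of the transcript to the probe cannot be told apart between genotypes on these arrays.

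In control leaves CDKB1;1 stood in the same order. It averaged -0.99 ± 0.07 in FR13A and -0.32 ± 0.04 in Goda Heenati (SD, n = 3), without overlap, and the within-slide differences were -0.65, -0.71 and -0.65. The difference of -0.67 ± 0.22 had an adjusted p of 0.103 in the limma fit and 0.049 with a block for the replicate number, and at 1.59-fold it was not called in either. Over 8 other settings, the block included, that adjusted p ran from 0.049 to 0.169, and with single arrays left out from 0.0314 to 0.251. Of 4 measured genes 0 were called between genotypes in control leaves, where 8.44% of all genes were. Their smallest unadjusted p in limma was 0.011, for CDKB1;1. The order of CDKB1;1 over the 4 groups was thus submerged Goda Heenati, control Goda Heenati, submerged FR13A and control FR13A. The last pair overlapped, and the other neighbours in that order did not.

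The other genes were not called between genotypes. Under submergence the difference between FR13A and Goda Heenati was -0.69 ± 0.61 for CDKB2;1, -0.06 ± 0.46 for PCNA and -0.52 ± 0.68 for RNR, with adjusted p of 0.656 or above in limma (n = 3 arrays a group). In control leaves the differences were -0.39 ± 0.61, -0.26 ± 0.46 and -0.46 ± 0.68 in the same order of genes, all with an adjusted p of 1.0. RNR was lower in FR13A on each of the 3 slides in both treatments, with within-slide differences of -0.28, -0.64 and -0.65 submerged and -0.17, -0.32 and -0.88 in control leaves. PCNA was lower in FR13A on each slide in control leaves, at -0.20, -0.22 and -0.36.

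**Figure D3:**
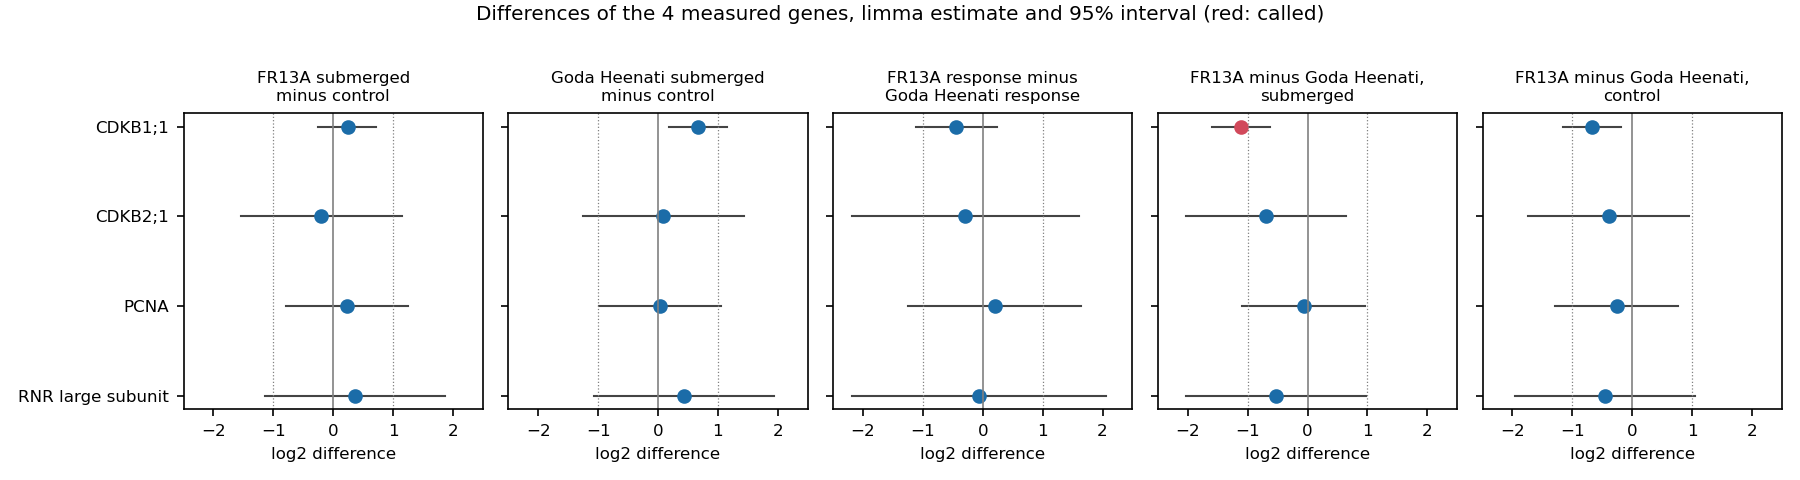
Log2 differences of the 4 measured genes with 95% intervals from limma (horizontal axes) in the 5 comparisons named above the panels; dotted lines mark 2-fold and red marks a called gene. CDKB1;1 in submerged leaves, FR13A minus Goda Heenati, is the only red point, and the intervals of CDKB2;1, PCNA and RNR all cross 0.

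Cell cycle and replication genes beyond the 7 were read from 9 lists of 58 loci, of which 55 were on the array and 47 were measured. In FR13A 3 rose, 4 fell and 40 were not called, so 14.9% were called beside 21.8% of all genes. In Goda Heenati 1 rose, 3 fell and 43 were not called, 8.51% beside 20.6%. With the replicate block the Goda Heenati counts were 2 and 5, since RBR1, CYCD6;1 and KRP1 then passed, with adjusted p of 0.0189, 0.00254 and 0.000735 in limma. The block also raised the Goda Heenati count over all 22724 genes, to 6099 from 4681. For the difference between the responses 0 of 47 were called, beside 0.0924% of all genes.

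Of the inhibitors, the retinoblastoma-related protein and E2F factors, 9 were measured. In FR13A 3 of them rose and 1 fell, 44.4% beside 21.8% of all genes. In Goda Heenati 1 rose and 0 fell, 11.1% beside 20.6%. WEE1 (Os02g0135300), a kinase that inhibits cyclin-dependent kinases, rose in both genotypes. It read -4.78, -4.86 and -6.09 on submerged FR13A arrays, against -7.80, -6.85 and -6.81 on FR13A control arrays. In Goda Heenati it read -4.61, -4.86 and -5.44 on submerged arrays, against -7.12, -7.20 and -6.54 on control arrays. All 6 submerged arrays lay above all 6 controls, of which 2 were well above background. The differences were 1.91 ± 0.41 and 1.98 ± 0.41 in FR13A and Goda Heenati, with adjusted p of 0.00723 and 0.00619 from limma (n = 3 arrays a group). Their size rests on 4 control values not well above background: with normexp background correction they were 1.0 in FR13A and 0.99 in Goda Heenati, the second just under 2-fold.

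KRP4 (Os10g0471700), an inhibitor of cyclin-dependent kinases, read 1.28, 1.85 and 1.20 on submerged FR13A arrays, against -0.33, 0.61 and 0.14 on FR13A control arrays. It rose by 1.31 ± 0.28 in FR13A with an adjusted p of 0.00679. In Goda Heenati it read 1.05, 1.30 and 0.98 on submerged arrays, against 0.19, 0.63 and 0.28 on control arrays, a difference of 0.74 ± 0.28 with an adjusted p of 0.0783. The groups did not overlap in either genotype, and the response difference of 0.57 ± 0.40 was not called (adjusted p of 1.0). KRP1 (Os02g0762400), of the same family, went the other way: it fell by 1.12 ± 0.36 on the log2 scale in FR13A with an adjusted p of 0.0406, and was 4th in its list and named after its value was seen. That call was lost with no filter on dim probes and without any 1 of 7 arrays, FR13A submerged 1 and 2, FR13A control 2 and 3, Goda Heenati submerged 2 and Goda Heenati control 2 and 3, with an adjusted p of up to 0.144.

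RBR1 (Os08g0538700), a retinoblastoma-related protein that holds back entry into S phase, read -3.79, -4.03 and -5.54 on submerged FR13A arrays, against -8.11, -6.46 and -8.94 on FR13A control arrays. It rose by 3.38 ± 0.92 in FR13A, with an adjusted p of 0.0214 from limma and 1 of 3 control arrays well above background. With normexp background correction the rise was 1.73 with an adjusted p of 0.00507, so its size is uncertain. On submerged Goda Heenati arrays it read -5.53, -6.32 and -6.54, against -8.81, -6.33 and -10.15 on Goda Heenati control arrays. The Goda Heenati difference of 2.30 ± 0.92 had an adjusted p of 0.0945, and its second control array was level with the second submerged one. The FR13A call was lost without submerged FR13A array 1 or 2 or FR13A control array 1 or 3, with values from 2.83 to 4.07 over all arrays left out and an adjusted p of up to 0.0766.

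Among D-type cyclins, which carry growth signals to the step into S phase, 5 were measured, 1 fell in each genotype and 0 rose. That is 20% in both genotypes, near the 21.8% and 20.6% of all genes. CYCD6;1 (Os07g0556000) read -3.40, -4.38 and -3.87 on submerged FR13A arrays, against -1.44, -2.18 and -2.79 on FR13A control arrays. It fell by 1.75 ± 0.46 on the log2 scale in FR13A with an adjusted p of 0.0184. That call was lost without submerged array 2 or control array 1 of FR13A, with an adjusted p of up to 0.0783. In Goda Heenati its difference was -1.36 ± 0.46 with an adjusted p of 0.0539. CYCD3;1 (Os06g0217900) fell by 1.02 ± 0.21 in Goda Heenati with an adjusted p of 0.00657, and its FR13A difference of -0.86 ± 0.21 had an adjusted p of 0.0143 but was under 2-fold. The Goda Heenati call of CYCD3;1 was lost, with values up to -0.76, under quantile normalization, normexp and the deposited table and without submerged array 3 or control array 2 or 3 of Goda Heenati. The submerged and control arrays of both cyclins did not overlap in either genotype, but the share of all genes without overlap was not counted. For CYCD6;1 in Goda Heenati they nearly met, with the highest submerged value at -3.52 and the lowest control value at -3.51.

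CDKA;2 (Os02g0123100), a kinase of the A type that acts through the whole cycle, fell in both genotypes. It read -2.93, -3.31 and -2.18 on submerged FR13A arrays, against -1.51, -1.64 and -1.20 on FR13A control arrays. In Goda Heenati it read -3.12, -3.32 and -3.11 on submerged arrays, against -1.60, -1.53 and -1.50 on control arrays. It fell by 1.35 ± 0.27 in FR13A and by 1.64 ± 0.27 in Goda Heenati, with adjusted p of 0.00517 and 0.00188 from limma. Its 4 kept probes ranged from -1.48 to -0.91 in FR13A and from -1.64 to -1.13 in Goda Heenati. The other 3 measured genes of that list, CDKA;1, CDKD;1 and CKS1, were not called, so 25% of the list was called in each genotype, beside 21.8% and 20.6% of all genes.

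Of 5 measured genes of origin recognition and licensing, 1 fell in each genotype and 0 rose, 20% in both and near the share of all genes. ORC1 (Os06g0187000), the subunit that starts the loading of the MCM helicase, fell by 1.23 ± 0.37 in FR13A and by 1.12 ± 0.37 in Goda Heenati, with adjusted p of 0.0327 and 0.0496. It was well above background on 1 of 3 submerged arrays of each genotype and on all 6 controls. With 2 of 3 submerged arrays at background, the size of the fall is uncertain, and both calls were lost with normexp background correction, at -0.44 and -0.47. The FR13A call was also lost without array 1 or 2 of either FR13A group. The Goda Heenati call was lost under 4 of 7 other settings and without 7 of 12 single arrays (FR13A submerged 2, FR13A control 2, all 3 Goda Heenati submerged, and Goda Heenati control 1 and 2), with an adjusted p of up to 0.147. Of 11 measured genes of the replication fork, 2 of deoxynucleotide supply, 3 A-type cyclins and 3 of mitosis, 0 were called in either genotype. The clamp loader subunit RFC3, picked after its values were seen, was 0.66 ± 0.18 higher in submerged FR13A and 0.55 ± 0.18 higher in submerged Goda Heenati leaves, under 2-fold with adjusted p of 0.024 and 0.0497. RPA1A, of the same list and also picked so, went the other way without overlap. Its mean was -0.75 submerged against -0.27 in control leaves of FR13A, and -1.15 against -0.45 in Goda Heenati.

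Between genotypes 1 of the 47 was called in each treatment, MCM2 (Os11g0484300), which was named after its values were seen. That is 2.13%, beside 10.1% of all genes in submerged and 8.44% in control leaves. MCM2 read -5.81, -6.42 and -4.94 on submerged FR13A arrays, against -3.07, -3.42 and -2.57 on submerged Goda Heenati arrays. In control leaves it read -5.43, -3.84 and -5.61 in FR13A, against -2.60, -1.74 and -2.57 in Goda Heenati. The differences were -2.71 ± 0.52 submerged and -2.65 ± 0.52 in control leaves, with adjusted p of 0.00536 and 0.00691 from limma (n = 3 arrays a group). MCM3, measured on the same arrays, was not lower in FR13A on any slide, with 1.84, 1.45 and 1.05 submerged and 2.34, 0.83 and 2.38 in control leaves, but was well above background on only 2 of 6 Goda Heenati arrays.

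**Figure D4:**
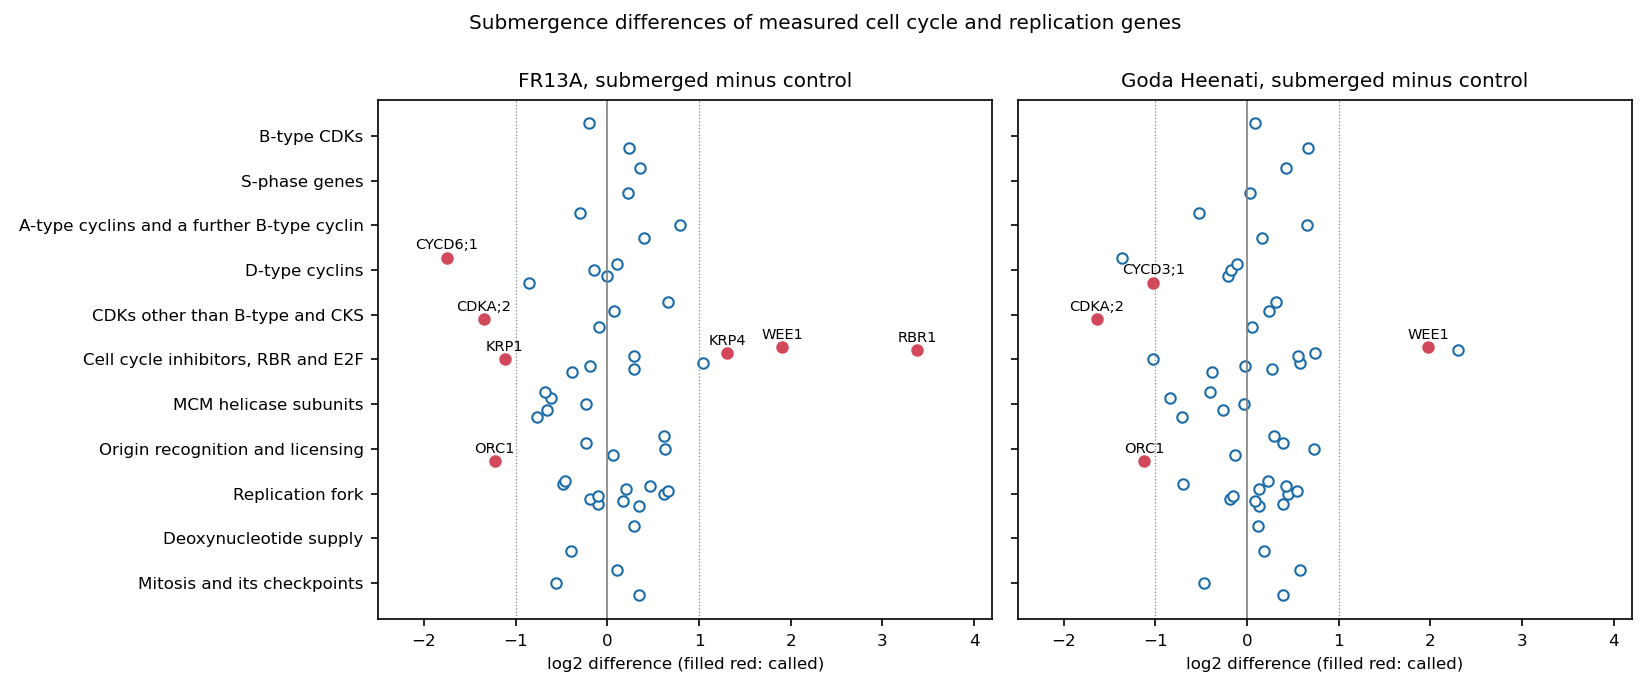
Log2 differences between submerged and control leaves (horizontal axis) of the measured genes in each list, FR13A left and Goda Heenati right; each point is a gene, filled red where called, and dotted lines mark 2-fold. The B-type kinases and S-phase genes at the top hold no red point, and the called points lie among inhibitors, D-type cyclins, CDKA;2 and ORC1.

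**Figure D5:**
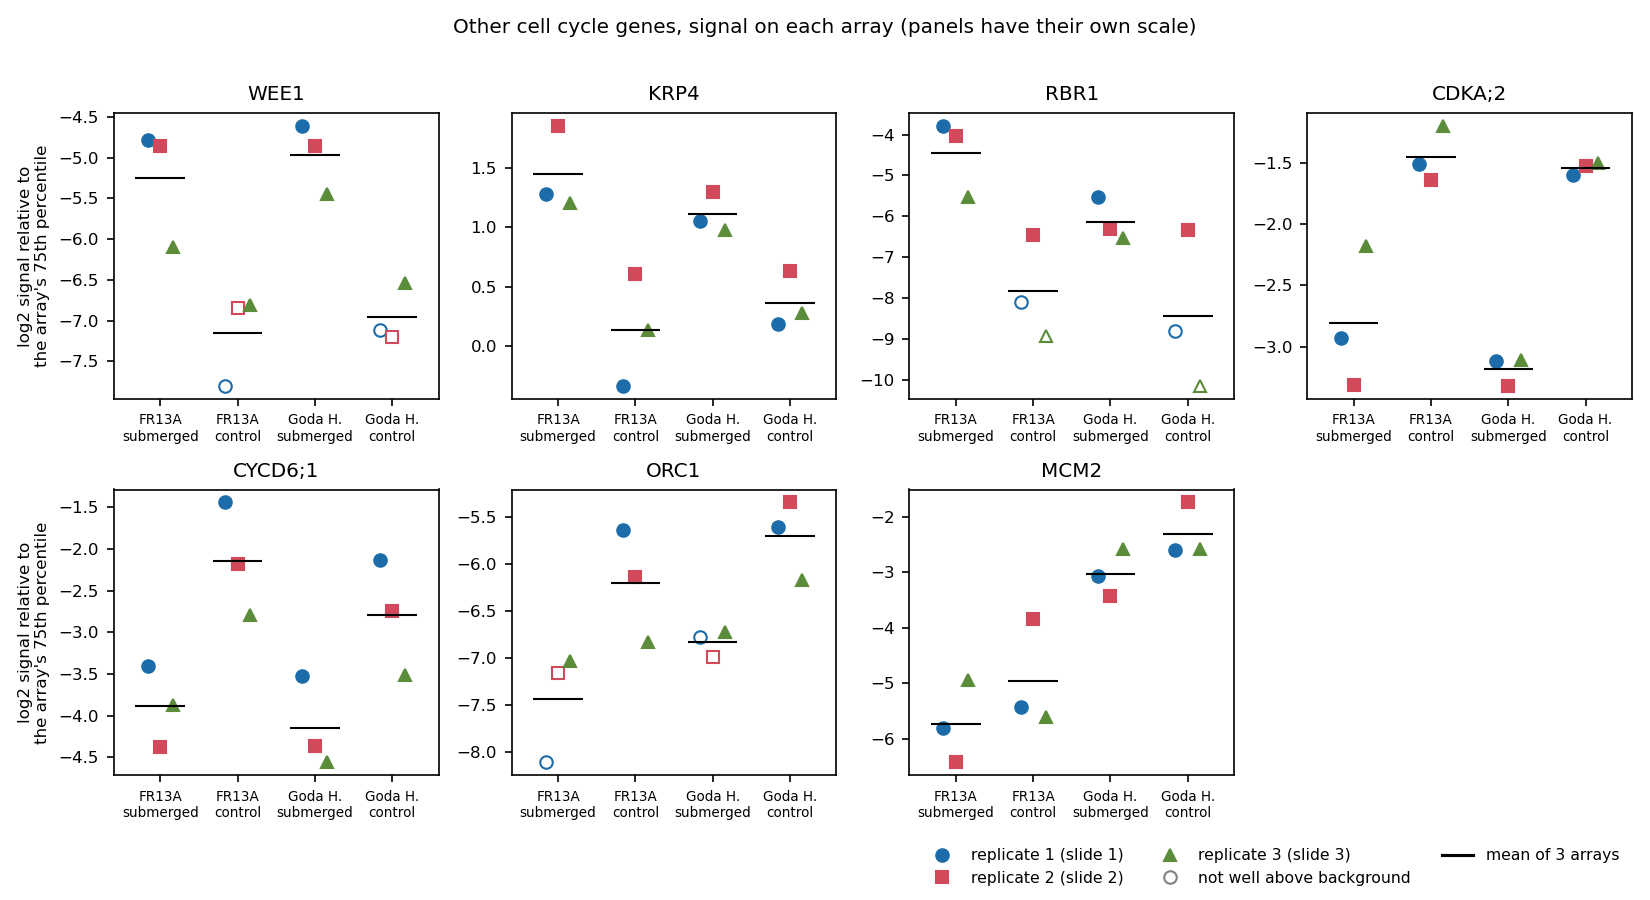
Log2 signal minus the 75th percentile of the array (vertical axes, each panel on its own scale) of 7 other cell cycle genes by group and replicate, with open markers for values not well above background and bars for means of 3 arrays. WEE1 and KRP4 are higher and CDKA;2, CYCD6;1 and ORC1 lower in submerged arrays without overlap within a genotype, while MCM2 separates the genotypes.

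Genes beyond the 7 with a value on all 12 arrays, 22173 in number, were ranked by Pearson correlation with the mean of the 7 genes. For that mean each of the 7 was set to mean 0 and SD 1. The nearest were Os09g0440300 at 0.903 and Os10g0540800 at 0.892, for which no name was available here. Of the listed genes, ORC4, a subunit of the origin recognition complex, stood highest at 0.766 and rank 57. That mean holds 3 genes at background, and the arrays share slides. With the mean of the 4 measured genes the order changed: the nearest were Os11g0194800 at 0.942 and Os03g0603300 at 0.935, FEN1A, a nuclease of the replication fork, led the listed genes at 0.838 and rank 85, and ORC4 stood at 0.777 and rank 279. Among the listed genes and markers alone, RNR was most like RNRL2, a second large-subunit gene, at 0.893, and FEN1A at 0.876.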

How the data were processed

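Total RNA of 12 leaf samples was labelled with Cy3 and hybridised to 12 one-colour Agilent rice 4x44K arrays, per the labels' protocols. The authors read spots with Agilent Feature Extraction 10.5.1.1, per the submitters' processing notes. Each deposited spot intensity is linear, and per the file headers the background had already been removed from the processed signal. The authors' deposited table of log2 values has the same distribution on every array, by a step not given in the sources used here, and served as an alternative.

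Control spots and outlier-flagged spots were omitted, spots of a probe were averaged, and the array's 75th percentile was subtracted from the log2 processed signal. Saturated spots were kept. The brightest kept probe stood for its gene. Differences were fitted with limma 3.58.1 in R 4.3.3 (lmFit, eBayes) as 4 group means with 8 residual degrees of freedom, with Benjamini-Hochberg adjustment over 22724 genes. A call needed both 2-fold or more and an adjusted p under 0.05. The fit was tested on simulated data. The 12 arrays, 3 a group, limit the precision. Where groups are said not to overlap, this describes 3 arrays a group, and the share of all genes without overlap was not counted. Alternatives were the replicate number as a block, quantile normalization, normexp (offset 50), the deposited table, no saturated spots, no filter on dim probes, other probe rules, and leaving out each array or slide. The files hold no mean spot signal, so normexp used the median signal, unlike planned, and quantile normalization followed it. Before that step the log2 values after normexp had an SD of 2.2 on submerged FR13A array 2, against 2.65 to 3.19 on the other arrays.

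Deviations from the group means correlated between same-numbered arrays, at 0.262 to 0.787 over 18 pairs, against -0.552 to 0.0309 over 36 pairs of other numbers. The numbers mark the slides, so they pair the samples. Unless the block is named, p-values, SEs, intervals and shares of all genes come from fits without it. Blocked values are printed where they change a call or a count of the listed genes. With the block, 6423 of 22724 genes were called in FR13A and 6099 in Goda Heenati, against 4959 and 4681 without it. Between genotypes 2928 were called in submerged and 2425 in control leaves, against 2304 and 1917. For the difference between the responses 83 were called, against 21.

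The members and lists were chosen with earlier results of these data known. From each list, up to 3 members called under submergence, by smallest adjusted p in either genotype, were named; the 7 genes were named whatever their values. Names of listed genes come from general knowledge. The gene table given holds no such locus, so a name was checked only by chromosome, which does not establish it. The table held the names of 6 of the 7 genes and of 44 listed genes on the chromosome of the locus and lacked 1 and 14. It placed 2 listed genes, and 1 marker gene, on another chromosome, and these were dropped. Each name should be read with its locus. No sequence of a probe or transcript was used here. Python 3.11.15 and matplotlib 3.10.9 were used for tables and figures.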

Additional observations from a re-analysis of the deposited data

Results flagged for a closer look

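CYCB2;2 gave a signal on 1 array although the gene was outside every comparison as not measured. On replicate 2 of submerged Goda Heenati its probe X82036 lay 2.37 above the highest of the 6 control arrays on the log2 scale, and was well above background there at a processed signal of 186. The gene's other probe was at background on the same array, and the other 2 submerged Goda Heenati arrays were at background on both probes. The value rests on 1 spot value, and its cause was not tested.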

How the results depend on the processing

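Over 23 alternatives (8 settings, 12 single arrays and 3 slides left out), the count of the 7 genes called remained at 0 in 4 comparisons. For FR13A minus Goda Heenati under submergence it was 1 under all 8 settings and 0 to 1 with arrays or slides left out. The 8 settings reversed no difference of a measured gene. With arrays or slides left out, differences of genes that were not called changed sign, and the ranges were as follows. For submergence in FR13A they were -0.74 to 0.39 (CDKB2;1), -0.30 to 0.62 (PCNA) and -0.26 to 1.04 (RNR). For submergence in Goda Heenati they were -0.36 to 0.46 (CDKB2;1) and -0.54 to 0.42 (PCNA). For the difference between the responses they were -0.83 to 0.30 (CDKB2;1), -0.23 to 0.65 (PCNA) and -0.69 to 0.61 (RNR). For FR13A minus Goda Heenati they were -0.26 to 0.19 (PCNA) under submergence, and -0.98 to 0.14 (CDKB2;1), -0.72 to 0.16 (PCNA) and -1.13 to 0.16 (RNR) in control leaves. CDKB1;1 between submerged genotypes ranged from -1.29 to -0.87. The causes were not tested.

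Over all genes, 21 were called for the difference between the responses. That count was 83 with the replicate block, 44 with quantile normalization, 54 with normexp, 48 with the deposited table and 0 to 43 with arrays or slides left out. With no filter on dim probes it was 14. Other counts with arrays or slides left out were 1960 to 5670 of 4959 in FR13A, 2015 to 4846 of 4681 in Goda Heenati, 1079 to 2307 of 2304 between submerged genotypes and 1010 to 1917 of 1917 between controls; a slide left out leaves 2 arrays a group. The replicate block changed no call of the 7 genes, and among listed genes it added only the 3 Goda Heenati calls named in the report. The 3 cyclins at background could not be tested, and changes below the detection limit would not be seen.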
